A study of Rattus norvegicus with 9 samples.

Results

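The right ventricle of rats with a banded pulmonary artery and a fibrotic heart was compared with that of sham-operated rats, across all genes that a feature of the array names. The comparison rests on 6 of the 9 arrays of the series, 3 titled Sham and 3 titled PAB_F(+), called F+ here. All animals were male rats of the SD (Sprague-Dawley) strain, and RNA came from frozen right ventricle. Pulmonary artery banding (PAB) is a surgical narrowing of the vessel that leaves the right ventricle, which then has to pump against a raised pressure. The methods divided banded rats, 4 weeks after the operation, by whether the fibrotic area was above 6.5% of the heart tissue (F+) or below it (F-), and the 3 F- arrays are used here only to share the estimate of the spread and as values set beside the F+ arrays. The sham-operated animals had surgery without the narrowing. Ages and the number of animals behind an array are not given in the sources used here, and the methods describe hybridization in triplicate, so that the p-values measure only the spread between arrays, which may be technical. Since the F+ group was defined by its fibrosis, differences between F+ and Sham hold banding and fibrosis together, and their shares cannot be told apart in this comparison.

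The table held 29215 features, and 14506 genes were described, each by 1 feature with a single gene symbol. Values are signal intensities as the authors deposited them, and a difference is given as a log2 fold change, the mean log2 value of the F+ arrays minus that of the Sham arrays, with its standard error. No source used here states the scale of the deposited values, so that folds hold on this scale only. Because whole ventricle was measured, a change in the number of cells of a type and a change in RNA per cell cannot be told apart.

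A pressure-overloaded ventricle is known to thicken through growth of its muscle cells, which turn on genes of the fetal heart such as the natriuretic peptides. Fibroblasts between the muscle cells can turn into matrix-secreting myofibroblasts, and macrophages enter or multiply in the tissue. The healthy adult heart draws most of its energy from fatty acids, and genes of fatty acid oxidation are known to decline in hypertrophy. These and other functions were read as 63 lists of genes and a further list of olfactory receptors, of which only some are described.

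Sequence upstream of 4 genes is shown as examples of windows that hold the motif marked. The genes come from the lists that describe the heart muscle cell itself, its stress genes and its fatty acid genes. Most matched promoters of these lists lack the motif marked for their pair. The sequences are the 250 bases before the gene start from RefSeq, assembly GRCr8, read on the strand of the gene. For the first pair, capitals mark CATTCC, known as the MCAT element of muscle promoters, and in Nppb also AGATAA, a site of the kind GATA factors bind. For the second pair, capitals mark AGGTCA, the half-site of many nuclear receptors. Both strands were searched for these exact letters only, and no motif overlapped another.
Nppb, chr5:163699758-163700007, plus strand: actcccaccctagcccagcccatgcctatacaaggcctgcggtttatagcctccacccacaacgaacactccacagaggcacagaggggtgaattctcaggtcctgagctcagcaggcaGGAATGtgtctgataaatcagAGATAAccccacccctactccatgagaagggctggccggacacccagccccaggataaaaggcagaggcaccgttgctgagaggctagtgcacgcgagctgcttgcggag
Ankrd23, chr9:46274511-46274760, minus strand: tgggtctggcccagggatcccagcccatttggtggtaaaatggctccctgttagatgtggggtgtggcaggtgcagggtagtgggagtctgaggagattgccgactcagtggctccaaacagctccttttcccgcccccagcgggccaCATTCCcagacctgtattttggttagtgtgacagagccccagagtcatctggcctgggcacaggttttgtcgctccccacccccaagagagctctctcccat
Eci1, chr10:13961000-13961249, plus strand: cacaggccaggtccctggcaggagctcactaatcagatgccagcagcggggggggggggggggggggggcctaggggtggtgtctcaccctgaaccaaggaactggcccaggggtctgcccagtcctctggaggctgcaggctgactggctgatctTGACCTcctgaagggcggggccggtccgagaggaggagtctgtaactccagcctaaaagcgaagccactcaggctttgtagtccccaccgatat
Ucp3, chr1:164227660-164227909, plus strand: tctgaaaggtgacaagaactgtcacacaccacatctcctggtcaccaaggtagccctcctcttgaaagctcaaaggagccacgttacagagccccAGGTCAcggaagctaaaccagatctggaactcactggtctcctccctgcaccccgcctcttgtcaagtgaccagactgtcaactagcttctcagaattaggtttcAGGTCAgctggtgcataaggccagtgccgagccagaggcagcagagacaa
CATTCC was present in 3 of the 10 promoters matched for the hypertrophy list (Nppb, Ankrd23 and Acta1) and in 11.8% of all 27457 promoters of that length, but also in 4 of the 25 promoters matched for the fatty acid list (16%). AGATAA was present in 1 of the 10 hypertrophy promoters, 1 of the 25 fatty acid promoters and 10% of all. AGGTCA was present in 5 of the 25 fatty acid promoters, 1 of the 10 hypertrophy promoters and 13.7% of all. A match describes the letters in this window and says nothing about binding.

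No feature passed the adjusted threshold in this comparison. With limma, 0 of 29215 features had an adjusted p under 0.05, the smallest being 0.564, while 1023 features were higher (3.50%) and 1140 lower (3.90%) at an unadjusted p under 0.05. Among the 14506 genes, 640 were higher in the F+ group (4.41%) and 603 were lower (4.16%) at that unadjusted threshold. All 3 F+ arrays lay above all 3 Sham arrays for 1110 genes (7.65%) and below them for 1082 genes (7.46%). These percentages are the background against which the counts of each list are read. Over all genes 48.9% were higher by any amount and the median log2 fold change was -0.0013. Above 1.5-fold there were 15 genes higher (0.103%) and 8 lower (0.0551%). Large folds were mostly those of dim features: of 89 features above 1.5-fold higher (0.305%) and 46 lower (0.157%), 72 and 40 lay in the dimmest 33.3% of features, where the median SD on the log2 scale was 0.108 against 0.0423 in the brightest 33.3%. The 1104 olfactory receptor genes, which the heart is not known to need, are mostly dim. Of them 51 were higher (4.62%) and 18 lower (1.63%) at an unadjusted p under 0.05.

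The arrays were alike in their medians, 33.4 to 33.9. Markers of heart muscle cells (Myh6, Tnnt2, Tnni3, Actn2, Ryr2 and Pln) were among the brightest genes, at the 99.2 percentile or above, and their summed value was 906.3 to 928 on the Sham arrays and 904.4 to 912.7 on the F+ arrays. Sham array 2 stood apart in genes of the atrium: Bmp10 was 18.7, 85.8 and 18.4 on the Sham arrays, Sln 53.8, 115.1 and 43.9, and Myl7 88.5, 149.9 and 92.2. Summed atrial markers (Myl7, Sln, Nppa, Bmp10 and Nr2f2) were 261.3 to 532.8 on the Sham arrays and 309.8 to 340 on the F+ arrays. Nppa, read here among the hypertrophy genes too, is part of this sum. Without Sham array 2 the log2 fold change of Nppa was 1.27, against -0.04, -0.23 and -0.16 for Bmp10, Sln and Myl7. The values of Nppa, Bmp10 and Sln are given below with and without Sham array 2. F+ array 1 was no nearer to its own group than to Sham, with a mean correlation of 0.984 with the other F+ arrays and 0.9841 with the Sham arrays. F- array 1 lay nearer to the F+ arrays than to the Sham arrays, with a mean correlation of 0.984 against 0.9758. The distance of F- array 1 from the other F- arrays enters the spread that the test shares over the groups. Without it the smallest adjusted p from limma was 0.0647, a value that Nppb, Ncam1, Akip1 and Cacng6 shared. Sham array 1 stood apart in immediate early genes, which cells turn on within minutes of a stimulus: the median log2 difference of this list from the Sham mean was 0.21 on that array and -0.11 and -0.11 on the other two. Its median log2 fold change of -0.08 became 0.06 without that array.

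**Figure D1:**
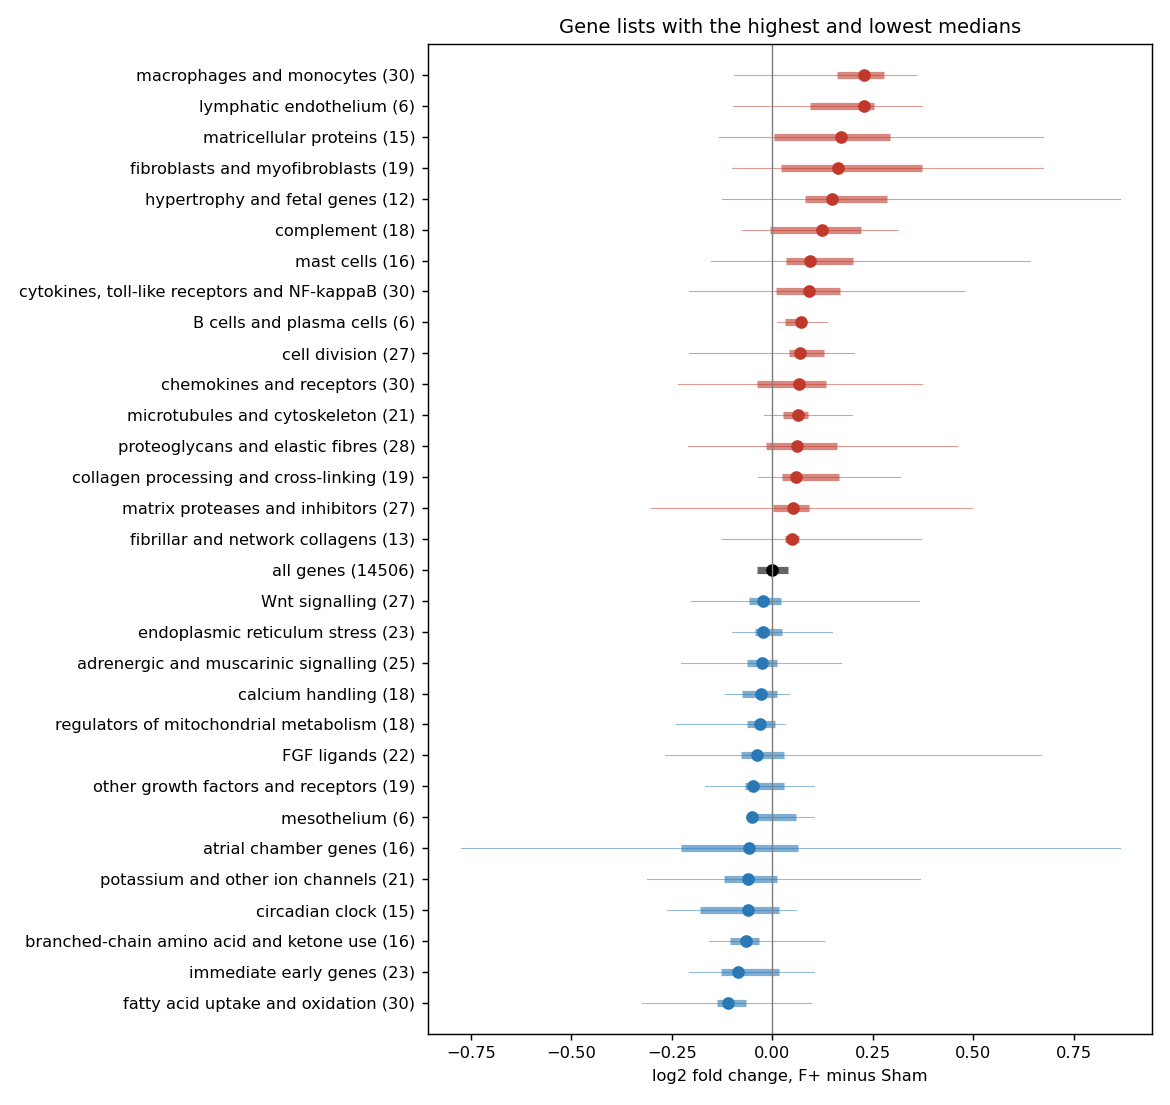
Median log2 fold change (F+ minus Sham, horizontal axis) of the 16 gene lists with the highest and the 14 with the lowest medians, beside all genes (black). Dots are medians, thick bars run between the quartiles of the members, thin lines from the lowest to the highest member, and the number of measured members stands in parentheses; macrophage genes lie highest at 0.23 and fatty acid genes lowest at -0.11.

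Which cells the largest increases came from was not tested, since whole ventricle was measured. Among the genes with the largest increases were the olfactory receptors Or13c3, Or13f5l1 and Or4c127 and the vomeronasal receptor Vom1r82. Their values are not given here. Dusp15, which encodes a dual-specificity phosphatase, had the largest log2 fold change, 0.87 (standard error 0.242, unadjusted p = 0.00723), with values of 22, 27.1 and 27.6 on the Sham arrays and 45.6, 53.4 and 41.6 on the F+ arrays. The values of Ncam1, a neural cell adhesion molecule that stressed heart muscle is known to re-express, were 55.3, 64.6 and 58.6 on the Sham arrays and 107.7, 110.2 and 104.8 on the F+ arrays. The groups lay far apart, and the log2 fold change was 0.86 (standard error 0.212, unadjusted p = 0.00404). Akip1, whose product binds protein kinase A, gave 47.8, 43.3 and 47 on the Sham arrays and 82, 85.3 and 73.5 on the F+ arrays, which gave a log2 fold change of 0.80 (unadjusted p = 0.00552). Every F+ array exceeded every Sham array for Dusp15, Ncam1 and Akip1. The order depends on the scale. If the square roots of the values are read as log2 intensities, which no source states, the fold of Dusp15 was 3.45. It was then below Nppa (7.43), Ncam1 (6.33) and Akip1 (4.51).

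The largest decrease was that of Cyp2e1, a cytochrome P450 that oxidises ethanol, ketones and fatty acids. Its values were 83.7, 44.9 and 61.1 on the Sham arrays and 27.5, 23.2 and 28 on the F+ arrays. The Sham arrays spread widely while the F+ arrays lay close together, all below the lowest Sham array, and the log2 fold change was -1.23 (standard error 0.304, unadjusted p = 0.00398). Gabrb2, a subunit of the GABA-A receptor, was at 52.1, 57.8 and 61.9 on the Sham arrays and 36.5, 36.1 and 38 on the F+ arrays (log2 fold change -0.63, unadjusted p = 0.00995). Acot1, a thioesterase that splits fatty acyl-CoA, was dim, at 18.3, 11.9 and 11.1 on the Sham arrays and 9.4, 7.4 and 10.1 on the F+ arrays (log2 fold change -0.59, unadjusted p = 0.0147), and stood at -0.37 without Sham array 1. Eml5, which encodes a microtubule-associated protein, had a log2 fold change of -0.49 (unadjusted p = 0.00721). Bmp10 and Sln were also among the 20 largest decreases, at -0.77 and -0.64, but without Sham array 2 these values were -0.04 and -0.23. None of the 153 genes given with values here passed limma's adjusted threshold, with Benjamini-Hochberg adjusted p between 0.564 and 0.94.

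**Figure D2:**
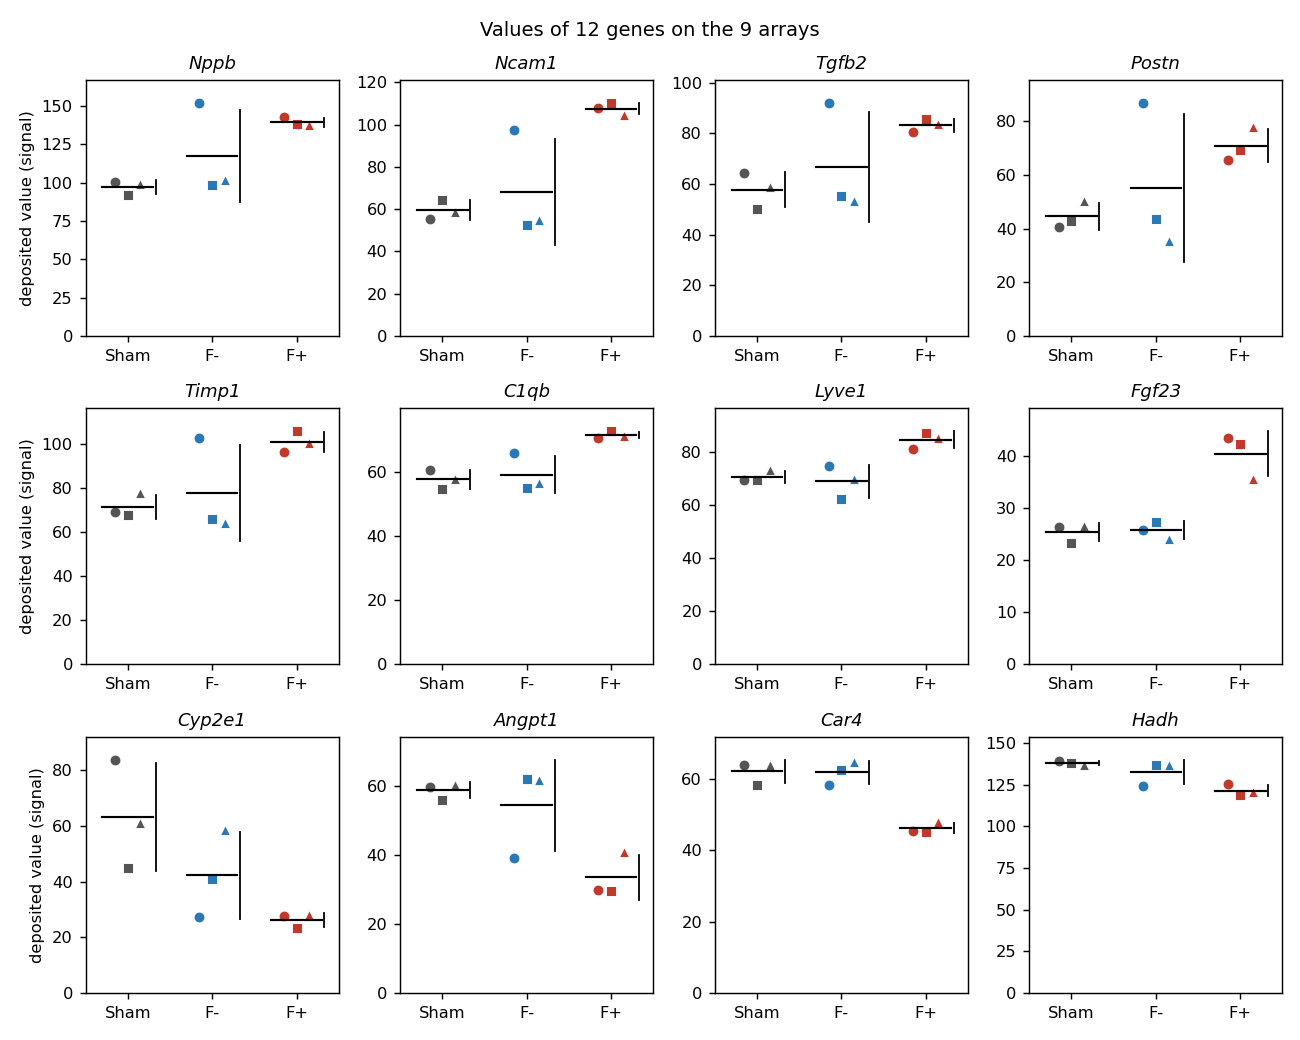
Deposited values (vertical axis, signal) of 12 genes on each array of the Sham, F- and F+ groups, a circle, a square and a triangle standing for array 1, 2 and 3, a horizontal line for the group mean and a vertical line for 1 SD on either side of it. For each of these genes the F+ arrays lie wholly above or wholly below the Sham arrays, and for several genes, such as Ncam1 and Nppb, F- array 1 lies near the F+ arrays.

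Stress genes of the heart muscle cell were higher in the F+ group. Of the hypertrophy and fetal gene list, 12 of 13 genes were measured, 11 were higher, and 4 were higher at an unadjusted p under 0.05 (33.3%, against 4.41% of all genes). The 1 lower at that threshold was Tnni1, the slow skeletal troponin I of the fetal heart (-0.13, unadjusted p = 0.0498). For 7 of them (58.3%, against 7.65%) every F+ array lay above every Sham array, and the median log2 fold change was 0.15. The values of Nppb, brain natriuretic peptide and the usual blood marker of ventricular strain, were 100.2, 91.9 and 98.8 on the Sham arrays and 142.7, 138 and 137.4 on the F+ arrays. These groups were well separated, and the log2 fold change was 0.52 (standard error 0.149, unadjusted p = 0.0082).

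Nppa, atrial natriuretic peptide, was 57.7, 135.8 and 59.7 on the Sham arrays and 149.5, 134.3 and 140.2 on the F+ arrays. The groups overlapped, since Sham array 2, the one with high atrial genes, reached the F+ level. The log2 fold change was 0.86 with all arrays (standard error 0.554, unadjusted p = 0.159) and 1.27 without Sham array 2. Ankrd23, a stretch-responsive protein bound to titin, was 71.4, 48.2 and 56.1 on the Sham arrays and 80.9, 80.8 and 83.6 on the F+ arrays. The F+ arrays lay within a narrow range above the Sham arrays, and the log2 fold change was 0.50 (unadjusted p = 0.0912). Smaller differences were found in Xirp2, an actin-binding protein of the intercalated disc (0.21, unadjusted p = 0.0314), in Rcan1, a target and inhibitor of calcineurin (0.21, unadjusted p = 0.0492), and in Enah, a regulator of actin assembly (0.20, unadjusted p = 0.0216).

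Other fetal genes did not stand out. Myh7, the slow myosin heavy chain that hypertrophied rat ventricle is known to turn on, was 159.1, 112.3 and 137.1 on the Sham arrays and 148.4, 143.3 and 141.5 on the F+ arrays. The Sham arrays spanned the F+ arrays, and the log2 fold change of 0.10 turned to -0.03 without Sham array 2. Acta1, skeletal actin, gave 124.9, 132.3 and 135.5 and 127.8, 141.2 and 147.1, which also overlapped (log2 fold change 0.08, 95% interval -0.09 to 0.26). The adult sarcomere list had a median of -0.01, and 16 of 21 members were lower by any amount. At an unadjusted p under 0.05, 0 were higher and 1 lower (4.76%, against 4.16% of all genes), Mylk3, a myosin light chain kinase, at -0.08. Every F+ array lay below every Sham array for 3 members (14.3%, against 7.46%) and above for 2 (9.52%, against 7.65%).

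Genes of the cytoskeleton were higher by amounts that were small on the log2 scale. Of 21 measured genes of microtubules and cytoskeleton, 20 were higher, 5 of them at an unadjusted p under 0.05 (23.8%, against 4.41%), and 11 had all F+ arrays above all Sham arrays (52.4%, against 7.65% of all genes), with a median of 0.06. Map1b, a microtubule-associated protein, had a log2 fold change of 0.20 (unadjusted p = 0.0335), and Flna, an actin cross-linker, of 0.14 (unadjusted p = 0.027). Among heat shock proteins, Hsp90aa1, the inducible cytosolic chaperone, was 86.6, 87.1 and 86 on the Sham arrays and 94.4, 97 and 102 on the F+ arrays (log2 fold change 0.18, unadjusted p = 0.0355). Hspb7, a small heat shock protein of heart muscle, lay 0.12 higher (unadjusted p = 0.0269). The list as a whole moved little, with a median of 0.02. Of 21 heat shock genes, 3 were higher at an unadjusted p under 0.05 (14.3%, against 4.41%) and 0 lower. All F+ arrays lay above all Sham arrays for 7 (33.3%, against 7.65%).

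Most fibroblast and myofibroblast genes were higher as well, although the main fibrillar collagens and several fibroblast markers overlapped between the groups. Of 19 measured genes, 15 were higher, 8 at an unadjusted p under 0.05 (42.1%, against 4.41%), and 11 had no overlap between the groups (57.9%, against 7.65%). The median log2 fold change was 0.16, and the members ranged from -0.10 to 0.67. The 4 lower members were Pdgfra, Tcf21, Ddr2 and Meox1, whose arrays all overlapped. Among the 8, Cthrc1, Ltbp2, Col8a1 and Tagln are also members of other lists. General fibroblast markers overlapped in sum: Pdgfra, Tcf21, Dcn, Col1a1, Dpt and Lum together gave 551.5 to 590.3 on the Sham arrays and 553.2 to 589.7 on the F+ arrays.

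Postn, periostin, which activated cardiac fibroblasts are known to secrete, was 40.5, 42.9 and 50.2 on the Sham arrays and 65.5, 69.4 and 77.6 on the F+ arrays. All F+ arrays were above the Sham arrays, and the log2 fold change was 0.67 (standard error 0.294, unadjusted p = 0.0525). Tmem119, a membrane protein first known from bone-forming cells, was 39.4, 45.3 and 38.1 on the Sham arrays and 65.6, 57.7 and 58.6 on the F+ arrays, a separation of 0.57 on the log2 scale (standard error 0.128, unadjusted p = 0.00234). Thy1, a surface glycoprotein of fibroblasts, gave 35, 36.3 and 40.7 and 43.9, 48.8 and 52.3 (log2 fold change 0.37, unadjusted p = 0.00286). Cilp, a matrix protein that binds TGF-beta, was uniform on the Sham arrays (34.4, 34.2 and 34.5) and spread on the F+ arrays (38.8, 51.3 and 57.8), and the difference of 0.50 had an unadjusted p of 0.0846. Pi16, a marker of adventitial fibroblasts, was higher by 0.33 (unadjusted p = 0.00583), Cthrc1, a secreted protein of activated fibroblasts, by 0.37 (unadjusted p = 0.0303), and Tagln, the actin-binding protein transgelin, by 0.12 (unadjusted p = 0.0069). Acta2, the smooth muscle actin that defines myofibroblasts, was 115.2, 118.2 and 114.8 on the Sham arrays and 117.2, 121.4 and 120.1 on the F+ arrays, which overlapped (log2 fold change 0.04, 95% interval -0.02 to 0.11).

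Of 13 measured collagens, 11 were higher, 2 of them at an unadjusted p under 0.05 (15.4%, against 4.41% of all genes), and the median was 0.05. Col1a1, the chain that dominates scar, was 72.9, 79.9 and 85.3 on the Sham arrays and 76.3, 82.1 and 85.4 on the F+ arrays. Col3a1, its companion in young scar, was 74, 74.8 and 78 and 72.4, 78.5 and 83.9. Both overlapped between the groups, at log2 fold changes of 0.04 (95% interval -0.15 to 0.22) and 0.05 (-0.10 to 0.19), and both turned just below 0 without F+ array 3. The collagens higher at that threshold were Col8a1, a short-chain collagen of vessels and healing tissue (0.37, unadjusted p = 0.0439), and Col14a1, which sits on the surface of fibrils (0.19, unadjusted p = 0.00667), and Col4a3, a basement membrane chain, was lower (-0.12, unadjusted p = 0.0126).

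Some enzymes that modify collagen and proteins that organise the matrix were higher too. P4ha1, the prolyl hydroxylase subunit that stabilises the collagen helix, was 56.8, 58.5 and 59.9 on the Sham arrays and 67.8, 68.4 and 69.6 on the F+ arrays. The F+ arrays were tightly grouped above, and the log2 fold change was 0.23 (standard error 0.048, unadjusted p = 0.0014). Plod2, a lysyl hydroxylase for cross-links, was higher by 0.32 (unadjusted p = 0.028), Loxl1, a lysyl oxidase of elastic fibres, by 0.26 (unadjusted p = 0.0247), and Tgm2, a transglutaminase that cross-links matrix, by 0.22 (unadjusted p = 0.0395). Among 19 measured genes of collagen processing, 18 were higher, 4 of them at an unadjusted p under 0.05 (21.1%, against 4.41% of all genes). Of 28 genes of proteoglycans and elastic fibres, 9 were higher (32.1%, against 4.41%) and 3 lower (10.7%, against 4.16%) at that threshold. Mfap5, a microfibril protein, was higher by 0.25 (unadjusted p = 0.00255), Vcan, the large proteoglycan versican, by 0.24 (unadjusted p = 0.00717), and Ltbp2, a latent TGF-beta binding protein of microfibrils, by 0.46 (unadjusted p = 0.0471), whereas its relative Ltbp1 was lower at -0.19 (unadjusted p = 0.00523), as were Mfap2 (-0.21, unadjusted p = 0.0155) and Efemp1 (-0.17, unadjusted p = 0.0465), which are also proteins of microfibrils and elastic tissue.

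Timp1 and Timp4, inhibitors of matrix metalloproteases, went in opposite directions. Timp1 was 69.2, 67.6 and 77.7 on the Sham arrays and 96.4, 105.6 and 100.3 on the F+ arrays, which gave a log2 fold change of 0.50 (standard error 0.168, unadjusted p = 0.0191). Timp4, the member of the family most typical of the heart, was 67.5, 64.4 and 65.5 on the Sham arrays and 53.6, 51.5 and 55.1 on the F+ arrays. Each gene had no overlap between the groups, and Timp4 stood at -0.30 (standard error 0.0505, unadjusted p = 0.000381). Serpine2, an inhibitor of thrombin and plasminogen activators, was higher by 0.33 (unadjusted p = 0.00735), and Ccn5, a matricellular protein, by 0.28 (unadjusted p = 0.0341).

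TGF-beta ligands, the main inducers of myofibroblasts, differed among themselves. Tgfb2 was 64.2, 50.3 and 58.8 on the Sham arrays and 80.6, 85.6 and 83.6 on the F+ arrays, higher by 0.53 on the log2 scale (standard error 0.198, unadjusted p = 0.0282). Tgfb1 was 66.6, 65.2 and 69.5 and 74.1, 73.1 and 71.2, also without overlap but at a smaller log2 fold change of 0.12 (unadjusted p = 0.0813). Inhba, a subunit of activin, lay 0.32 higher (unadjusted p = 0.0141), and so did Fstl3, an activin binder, by 0.32 (unadjusted p = 0.014). Smad6, an inhibitory member of the pathway that dampens BMP signals, was 53, 52.8 and 52.4 on the Sham arrays and 61.1, 61 and 58 on the F+ arrays. The F- arrays lay below both, at 48.5, 48.5 and 50.3, and the log2 fold change against Sham was 0.19 (standard error 0.0296, unadjusted p = 0.000265). Over the 22 measured genes of the TGF-beta and activin list, 4 were higher at an unadjusted p under 0.05 (18.2%, against 4.41% of all genes) and 0 lower. They were Tgfb2, Inhba, Fstl3 and the follistatin-like Fstl1 (0.17).

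**Figure D3:**
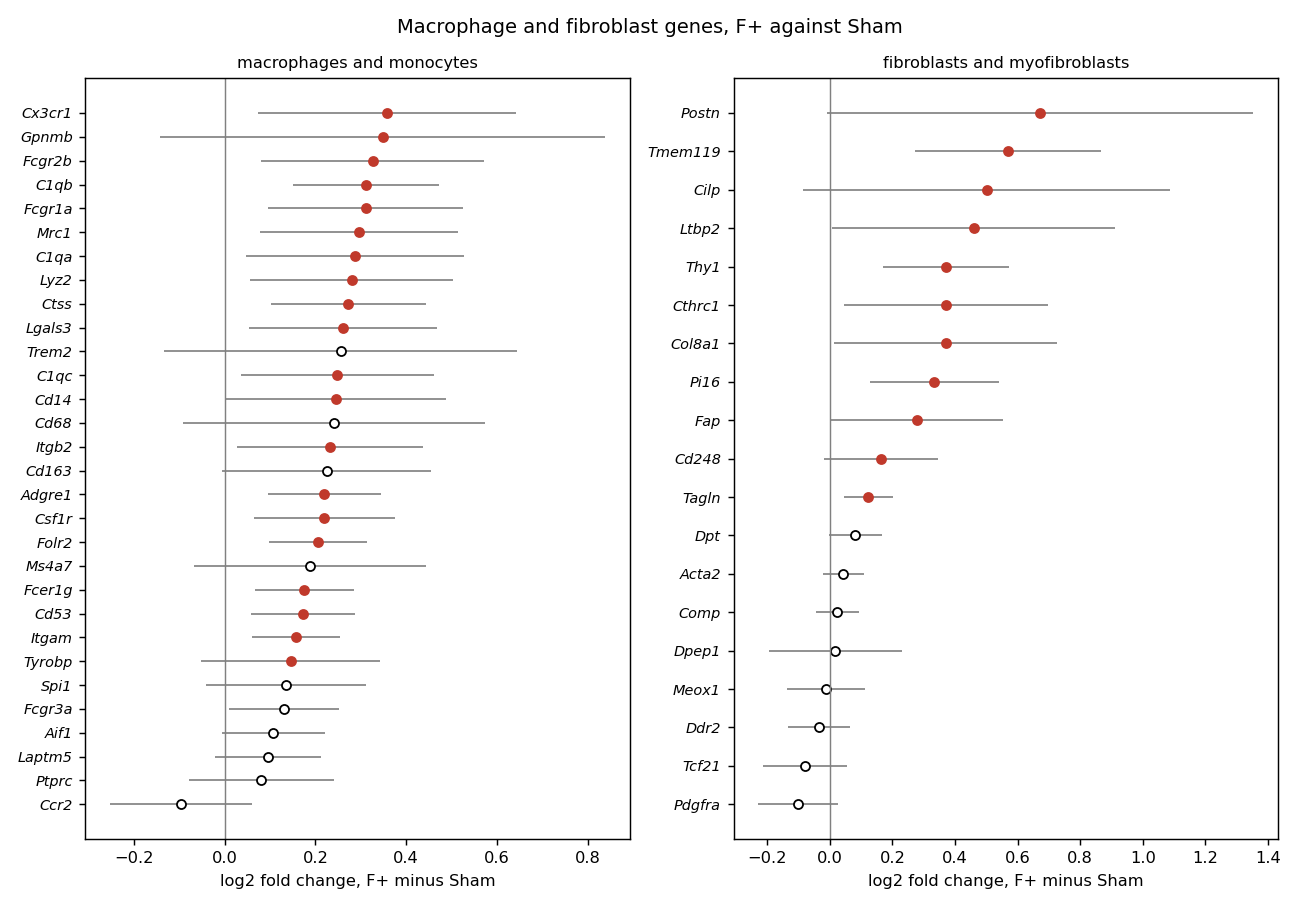
Log2 fold changes (F+ minus Sham, horizontal axis) of each measured gene of the macrophage and the fibroblast lists, with 95% intervals from limma as lines. Filled dots are genes whose F+ and Sham arrays do not overlap and open dots those that overlap; 29 of 30 macrophage genes lie above 0.

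Macrophage genes were the list with the highest median. Of 30 measured genes, 29 were higher, 19 at an unadjusted p under 0.05 (63.3%, against 4.41% of all genes), and 20 had every F+ array above every Sham array (66.7%, against 7.65%). The median log2 fold change was 0.23, and it lay between 0.19 and 0.25 with any one of the Sham or F+ arrays left out. The summed value of the markers Cd68, Csf1r, C1qa, C1qb, C1qc and Cd163 was 328.5 to 344.4 on the Sham arrays and 389.1 to 418.8 on the F+ arrays.

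C1qb, a chain of the first complement component and made in tissue mainly by macrophages, was 60.7, 54.6 and 57.8 on the Sham arrays and 70.7, 72.6 and 71.3 on the F+ arrays. The F+ arrays agreed closely and lay above, and the log2 fold change was 0.31 (standard error 0.0694, unadjusted p = 0.00221). The other chains, C1qa (0.29, unadjusted p = 0.025) and C1qc (0.25, unadjusted p = 0.0274), were higher by similar amounts. Cx3cr1, the fractalkine receptor, had the largest fold change of the list (0.36, unadjusted p = 0.0198). Folr2, a folate receptor of resident macrophages, was 66, 67.5 and 71.2 on the Sham arrays and 77.6, 82.4 and 76 on the F+ arrays (log2 fold change 0.21, unadjusted p = 0.00246). Adgre1, known as F4/80, was higher by 0.22 (unadjusted p = 0.00373) and Itgam, integrin alpha M, by 0.16 (unadjusted p = 0.00568). The single member below 0 was Ccr2, the receptor that draws monocytes from blood (-0.10, 95% interval -0.25 to 0.06). Clec5a, a lectin receptor of myeloid cells, was dim, at 14.1, 16.4 and 16 on the Sham arrays and 20.5, 22.4 and 24.9 on the F+ arrays, and gave 0.54 (standard error 0.0873, unadjusted p = 0.000291). Selplg, the selectin ligand of leukocytes, was higher by 0.45 (unadjusted p = 0.00343).

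Of 18 complement genes, 7 were higher at an unadjusted p under 0.05 (38.9%, against 4.41% of all genes) and 0 lower, with a median of 0.12. The chains C1qa, C1qb and C1qc, already counted among the macrophage genes, are 3 of these. C1s, a protease of the classical pathway, was 66.9, 68.3 and 64 on the Sham arrays and 75.3, 77.3 and 75.7 on the F+ arrays, all above the Sham arrays (log2 fold change 0.20, unadjusted p = 0.000681), its partner C1r lay at 0.11 (unadjusted p = 0.0148), and their inhibitor Serping1 at 0.12 (unadjusted p = 0.00185). In the chemokine list, 8 of 30 genes were higher at that threshold (26.7%, against 4.41%) and 0 lower. Ccl2, which draws monocytes, was 85.2, 66.1 and 79.5 on the Sham arrays and 95.9, 110.4 and 91.5 on the F+ arrays (log2 fold change 0.37, unadjusted p = 0.0285). Ccl19, which draws T cells and dendritic cells, was higher by 0.24 (unadjusted p = 0.00714), and Cxcl12, a stromal chemokine, by 0.10 (unadjusted p = 0.00659).

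Among genes of cytokine signalling, Il1r1, the interleukin-1 receptor, was 59.1, 58.8 and 56.2 on the Sham arrays and 65.2, 69.3 and 68.3 on the F+ arrays. No array of one group reached the other, and the log2 fold change was 0.22 (standard error 0.0407, unadjusted p = 0.000718). Osmr, the oncostatin M receptor, was higher by 0.27 (unadjusted p = 0.00897), and Tnfrsf11b, the secreted decoy receptor osteoprotegerin, by 0.48 (unadjusted p = 0.00512). Of 30 genes of cytokines, toll-like receptors and NF-kappaB, 6 were higher (20%, against 4.41% of all genes) and 0 lower at an unadjusted p under 0.05. In the interferon list 0 of 33 genes were higher and 0 lower at that threshold, with 0 genes whose arrays did not overlap and a median of -0.01. Lcn2, lipocalin 2, an iron-binding protein of neutrophils and injured tissue, was lower, at 43.1, 46.4 and 43.1 on the Sham arrays and 31.4, 30.5 and 33.8 on the F+ arrays (log2 fold change -0.47, standard error 0.0879, unadjusted p = 0.000756). Klrb1a, a receptor of natural killer cells, was also lower (-0.40, unadjusted p = 0.0055). Serpina3n, an inhibitor of serine proteases, was 25, 22.5 and 22.6 on the Sham arrays and 31.1, 49.2 and 29 on the F+ arrays, which gave a log2 fold change of 0.60 that was 0.36 without F+ array 2.

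Genes of blood vessels were mixed. Angpt1, the ligand that keeps the endothelium stable through the Tie2 receptor, was 59.6, 56 and 60.3 on the Sham arrays and 29.8, 29.6 and 40.9 on the F+ arrays. The Sham arrays were close together, and every F+ array lay below them, and the log2 fold change was -0.83 (standard error 0.196, unadjusted p = 0.00315). Car4, carbonic anhydrase 4, a membrane enzyme of capillary endothelium, was 63.9, 58.4 and 64 on the Sham arrays and 45.5, 45.2 and 47.9 on the F+ arrays. The log2 fold change was -0.43 with a standard error of 0.0521. Its unadjusted p of 4.5e-05 was the smallest among the genes given with values here, and limma's Benjamini-Hochberg adjusted p was 0.564.

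Vcam1 and Sele, which hold leukocytes to activated endothelium, were both higher. Vcam1 was 37.9, 38.6 and 35.8 on the Sham arrays and 44.2, 46.8 and 41.9 on the F+ arrays (log2 fold change 0.24, unadjusted p = 0.000807), and Sele, E-selectin, was 29.9, 31.2 and 28.8 and 39.4, 35.2 and 40.8 (log2 fold change 0.36, unadjusted p = 0.00433). Eng, endoglin, a co-receptor for TGF-beta and BMP, was bright on every array and higher by 0.13 (standard error 0.0269, unadjusted p = 0.00114). Hgf, a growth factor for endothelial and epithelial cells, was higher by 0.27 (unadjusted p = 0.00135), and Ace, the enzyme that makes angiotensin II, was 45.1, 43.1 and 45.5 on the Sham arrays and 52.3, 54.6 and 50.6 on the F+ arrays (log2 fold change 0.24, unadjusted p = 0.000912). Of 21 genes of blood vessel endothelium, 5 were higher at an unadjusted p under 0.05 (23.8%, against 4.41% of all genes). At that threshold 1 was lower (Aqp1, a water channel, -0.13), and the median was 0.05.

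Lymphatic genes were higher, except for the transcription factor that sets lymphatic identity. Of 6 measured genes, 3 were higher at an unadjusted p under 0.05 (50%, against 4.41%), and the median was 0.23. Lyve1, a hyaluronan receptor of lymphatic vessels and of some macrophages, was 69.3, 69.5 and 73.4 on the Sham arrays and 81.2, 87.3 and 85.4 on the F+ arrays (log2 fold change 0.26, unadjusted p = 0.00416). Reln, reelin, which lymphatic endothelium secretes, was 35.1, 34.4 and 29.9 and 45, 42.7 and 40.7 (log2 fold change 0.37, unadjusted p = 0.00453), and Flt4, the receptor for VEGF-C, lay 0.23 higher (unadjusted p = 0.00742). Prox1, which heart muscle also makes, had every F+ array below every Sham array, at a log2 fold change of -0.10 (95% interval -0.23 to 0.03).

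**Figure D4:**
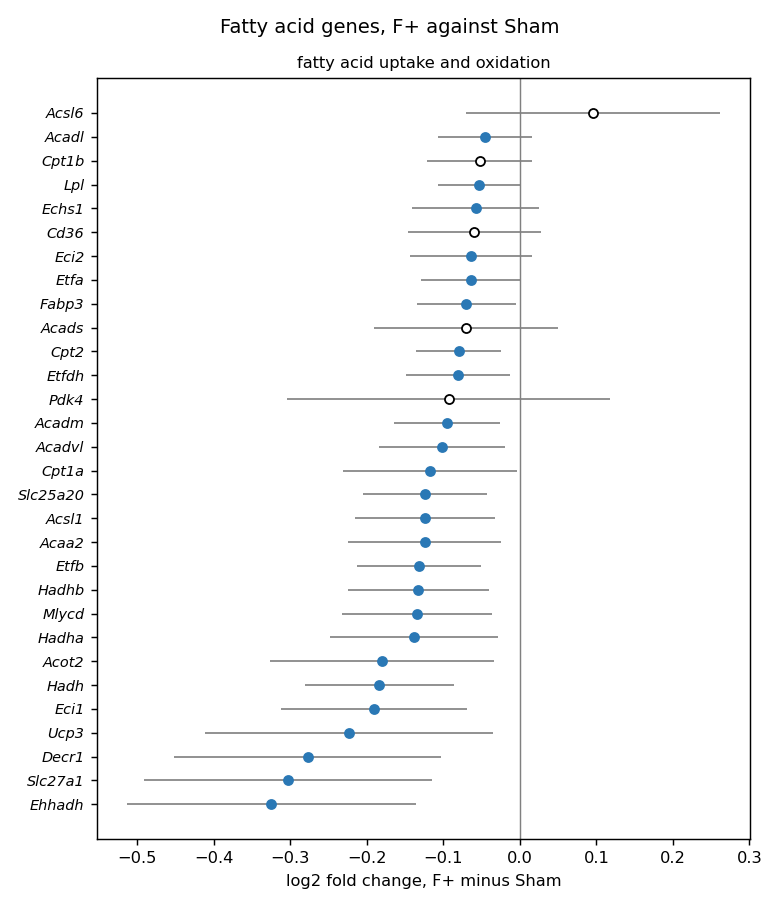
Log2 fold changes (F+ minus Sham, horizontal axis) of the 30 measured genes of fatty acid uptake and oxidation, with 95% intervals from limma as lines. Filled dots are genes whose F+ and Sham arrays do not overlap and open dots those that overlap; 29 of 30 lie below 0.

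Fatty acid genes were lower almost throughout. Of 30 measured genes of uptake and oxidation, 29 were lower, 20 at an unadjusted p under 0.05 (66.7%, against 4.16% of all genes), and 25 had every F+ array below every Sham array (83.3%, against 7.46%). The differences were small on the log2 scale, with a median of -0.11 and a range of -0.32 to 0.10. Left-out arrays gave medians between -0.12 and -0.08 on that scale. On square roots of the values, which look like log2 intensities, the median was -0.37.

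Hadh, which catalyses the third step of each oxidation cycle, was 138.9, 137.7 and 136.8 on the Sham arrays and 125.1, 118.5 and 120.5 on the F+ arrays. The Sham arrays differed little and the F+ arrays all lay lower, and the log2 fold change was -0.18 (standard error 0.0421, unadjusted p = 0.0026). Ehhadh, the bifunctional enzyme of peroxisomes, had the lowest value of the list, -0.32 (unadjusted p = 0.00433), from 58.7, 51 and 50.9 on the Sham arrays to 43.7, 41.5 and 42.8 on the F+ arrays. Slc27a1, a fatty acid transporter, was 92.4, 78.8 and 74.3 and 68.7, 61.8 and 67.9 (log2 fold change -0.30, unadjusted p = 0.00605), and Decr1, which handles unsaturated fatty acids, lay at -0.28 (unadjusted p = 0.0066). For both of these Sham array 1 was the highest. Eci1, an isomerase for unsaturated chains, was lower at -0.19 (unadjusted p = 0.00714), Etfb, which passes electrons on to the respiratory chain, at -0.13 (unadjusted p = 0.00575), Acadm, the medium-chain dehydrogenase, at -0.10 (unadjusted p = 0.0133), and Ucp3, a mitochondrial carrier regulated with fatty acid use, at -0.22 (unadjusted p = 0.026). Cpt1b, the gate of fatty acid entry into mitochondria, and the transporter Cd36 overlapped between the groups, at -0.05 and -0.06. Acsl6, an acyl-CoA synthetase best known from the brain, was the single member above 0 (0.10, unadjusted p = 0.221).

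Other routes of energy supply had medians nearer to 0. Among 16 genes of branched-chain amino acid and ketone use, 14 were lower, with a median of -0.07. At an unadjusted p under 0.05, 3 were lower (18.8%, against 4.16% of all genes). These were Acat1, a thiolase of ketone use (-0.11, unadjusted p = 0.0199), Auh, an enzyme of leucine breakdown (-0.10, unadjusted p = 0.0244), and Aldh6a1, an enzyme of valine breakdown (-0.09, unadjusted p = 0.035). Of 67 respiratory chain and ATP synthase genes, 3 were lower at that threshold (4.48%, against 4.16%) and 0 higher. They were Cox4i2 (-0.11) and Cox8b (-0.07), subunits of cytochrome oxidase, and Atp5mc2 (-0.08), of the ATP synthase. Of the 67, 47 were lower by any amount, and 10 had every F+ array below every Sham array (14.9%, against 7.46%) and 0 above. At an unadjusted p under 0.05 the citric acid cycle list had 1 of 23 lower (Suclg2, a succinyl-CoA ligase subunit, -0.09) and 0 higher. In that list 4 genes had every F+ array below every Sham array (17.4%) and 1 above (4.35%). Of 28 genes of glucose use, 5 were higher at an unadjusted p under 0.05 (17.9%, against 4.41%) and 0 lower. Pfkl, the liver form of phosphofructokinase, was 58.8, 62.7 and 62 on the Sham arrays and 72.6, 68.1 and 69.5 on the F+ arrays, all above the Sham arrays (log2 fold change 0.20, unadjusted p = 0.00302). Its platelet form Pfkp was higher by 0.19 (unadjusted p = 0.0338), Gbe1, the glycogen branching enzyme, by 0.15 (unadjusted p = 0.0114), Hk1, a hexokinase, by 0.13 (unadjusted p = 0.0457), and Eno1, an enolase, by 0.10 (unadjusted p = 0.0433). Of the regulators, Rxrg, a retinoid X receptor that pairs with other nuclear receptors, was 91.3, 88.3 and 88.3 on the Sham arrays and 78.9, 75.1 and 73.1 on the F+ arrays (log2 fold change -0.24, standard error 0.0527, unadjusted p = 0.00209). Ppargc1a, the coactivator of mitochondrial genes, overlapped at -0.05 (95% interval -0.17 to 0.07).

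**Figure D5:**
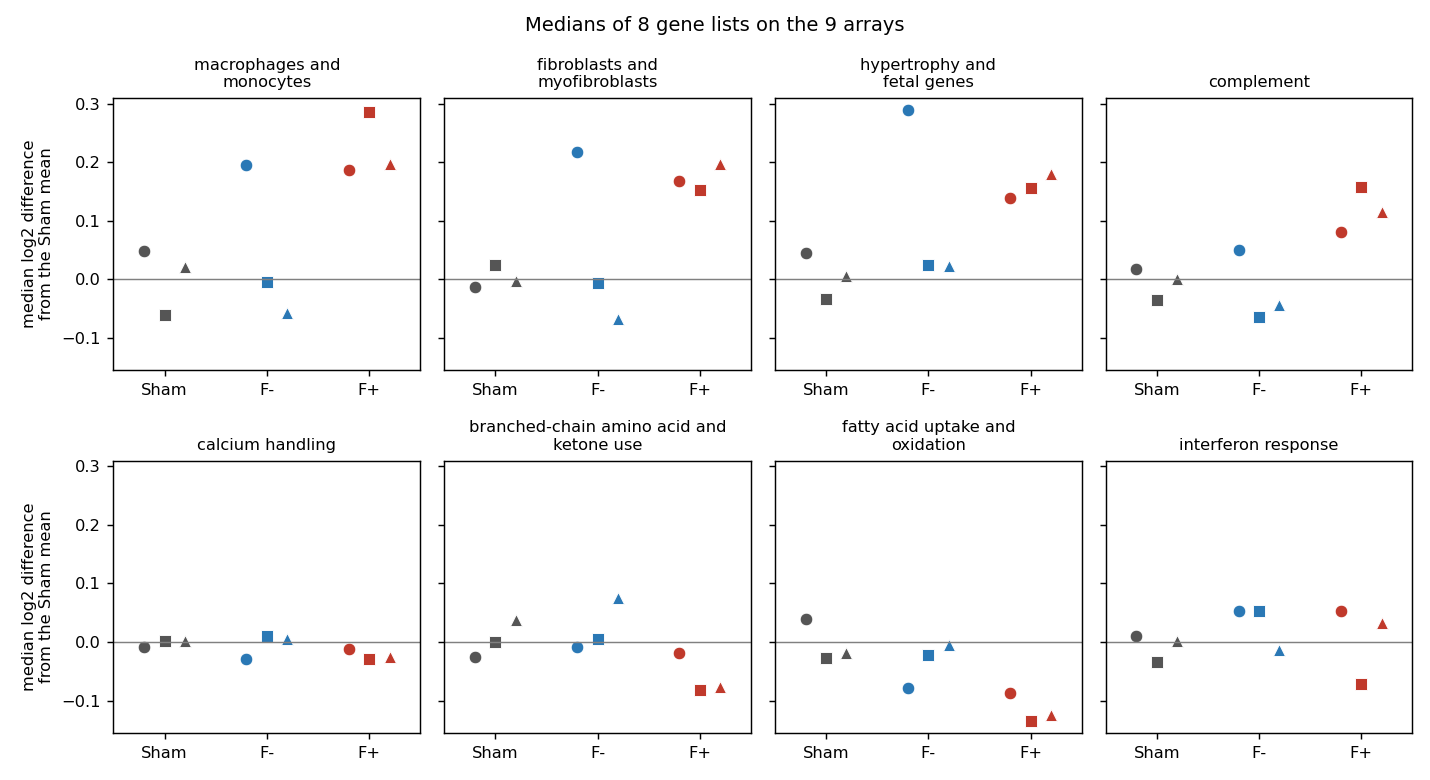
Median log2 difference of the members of 8 gene lists from their mean over the Sham arrays (vertical axis) on each array, a circle, a square and a triangle standing for array 1, 2 and 3. F+ and Sham arrays are apart for the macrophage, fibroblast, hypertrophy, complement and fatty acid lists and overlap for the interferon list, and F- array 1 lies near the F+ arrays in the macrophage, fibroblast and fatty acid panels.

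Channels of the muscle cell held genes in both directions. In the list of potassium and other channels 4 of 21 genes were lower at an unadjusted p under 0.05 (19%, against 4.16%) and 2 higher (9.52%, against 4.41%). Kcna5, which carries the ultrarapid repolarising current, was 37.7, 40.5 and 41.3 on the Sham arrays and 32, 30.9 and 34.6 on the F+ arrays (log2 fold change -0.29, standard error 0.062, unadjusted p = 0.00159). Kcnj5, a subunit of the potassium channel opened by acetylcholine, was 74, 73.2 and 66.8 and 59.2, 58.1 and 57 (log2 fold change -0.29, and -0.28 without Sham array 2, unadjusted p = 0.00166 with all arrays). Neither overlapped between the groups. Scn4b, a sodium channel beta subunit, was lower at -0.31 (unadjusted p = 0.0104) and Kcnv2, a modifier of potassium channels, at -0.15 (unadjusted p = 0.0468). Outside the list, Cacng6, a calcium channel gamma subunit, lay at -0.46 (unadjusted p = 0.00435). The pair that was higher were channels of pacemaking and of the fetal ventricle: Hcn2 was 51.4, 58.8 and 63 on the Sham arrays and 76.5, 77.3 and 69 on the F+ arrays (log2 fold change 0.37, unadjusted p = 0.00424), and the T-type calcium channel Cacna1h was 39.6, 42.7 and 38.1 and 46.8, 46.6 and 53.2 (log2 fold change 0.28, unadjusted p = 0.00252).

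Calcium handling genes were lower by amounts that were small on the log2 scale, with a median of -0.03. Of 18 genes, 4 were lower at an unadjusted p under 0.05 (22.2%, against 4.16% of all genes) and 0 higher. The members lower at that threshold were Itpr2, an IP3 receptor (-0.11), Hrc, a calcium-binding protein of the sarcoplasmic reticulum (-0.10), S100a1, which raises calcium cycling (-0.12), and Cacna1c, the L-type calcium channel (-0.09). Atp2a2, the calcium pump SERCA2, was 160.2, 161.1 and 162.4 on the Sham arrays and 160, 156.8 and 157.7 on the F+ arrays (log2 fold change -0.03, unadjusted p = 0.233), barely apart. In adrenergic and muscarinic signalling 4 of 25 genes were lower (16%, against 4.16%) and 2 higher (8%, against 4.41%) at that threshold. Adra1a, the alpha-1A receptor, was lower at -0.12 (unadjusted p = 0.0128), Ppp1r1a, an inhibitor of protein phosphatase 1, at -0.23 (unadjusted p = 0.00865), and the phosphodiesterases Pde3a and Pde4b, which break down cyclic AMP, at -0.11 and -0.11. Grk5, a kinase that desensitises receptors, was higher by 0.17 (unadjusted p = 0.00713) and Gnai2, an inhibitory G protein subunit, by 0.08 (unadjusted p = 0.0149). At the intercalated disc, Cxadr, the coxsackie and adenovirus receptor, was 92.6, 101.5 and 97.8 on the Sham arrays and 75.8, 78.8 and 76.4 on the F+ arrays, which did not overlap (log2 fold change -0.34, standard error 0.0768, unadjusted p = 0.00253), and Dsc2, a desmosomal cadherin, lay at -0.08 (unadjusted p = 0.029).

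Some genes of the circadian clock were lower. Dbp, a transcription factor driven by the clock, was 86.4, 73.4 and 80.7 on the Sham arrays and 68.6, 69.6 and 73 on the F+ arrays (log2 fold change -0.18, unadjusted p = 0.032). Nr1d2 lay at -0.18 (unadjusted p = 0.0444) and Per3 at -0.19 (unadjusted p = 0.045). These were the 3 of 15 clock genes lower at an unadjusted p under 0.05 (20%, against 4.16% of all genes), with 0 higher. The hour at which tissue was collected is not stated in any source used here, and its part was not tested.

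Genes of blood cells differed between single arrays. Hbb, a beta-globin, was 47.8, 52.3 and 52.6 on the Sham arrays and 107.8, 64.2 and 76.8 on the F+ arrays, with F+ array 1 far above the others (log2 fold change 0.67, standard error 0.17, unadjusted p = 0.00456). Hbb-b1 had the same pattern, at 39.1, 43.3 and 45.9 and 103.5, 56.9 and 66.3 (log2 fold change 0.78, unadjusted p = 0.00694), but probes for such near-identical genes can bind each other's transcripts, so that these are not independent. Summed red cell markers (Hbb, Alas2, Ahsp and Slc4a1) were 105.4 to 115.6 on the Sham arrays and 123.5 to 188.7 on the F+ arrays. Hbb is part of this sum, so that the sum is no separate result. Of 12 measured red cell genes, 8 were higher and 4 lower by any amount, with a median of 0.03. At an unadjusted p under 0.05, 2 were higher (16.7%, against 4.41% of all genes), namely Hbb and Hbb-b1, and 0 lower. Cpa3, a protease of mast cell granules, was 25.9, 22 and 21.7 on the Sham arrays and 30.5, 50 and 30.7 on the F+ arrays, where array 2 was the highest. Its log2 fold change was 0.64 with all arrays and 0.40 without F+ array 2. Cma1, mast cell chymase, was dim, at 14.8, 10.9 and 12.6 and 15, 20.2 and 17.9 (log2 fold change 0.47, unadjusted p = 0.00784). The summed mast cell markers were 88.5 to 97.2 on the Sham arrays and 95.4 to 124.1 on the F+ arrays, which overlapped.

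Growth factor genes included both directions. Igfbp3, which binds insulin-like growth factors, was 64, 63 and 63.9 on the Sham arrays and 49.8, 55 and 52 on the F+ arrays. The Sham arrays lay within 1 unit of each other and all F+ arrays below them, and the log2 fold change was -0.29 (standard error 0.0408, unadjusted p = 0.000135). Igfbp6, of the same family, was 60.3, 49.6 and 51.7 and 67, 82 and 77.1, higher by 0.48 (unadjusted p = 0.00565). Cntfr, a receptor chain for ciliary neurotrophic factor, was 48.1, 50.6 and 47.6 on the Sham arrays and 38.5, 41.1 and 35.7 on the F+ arrays (log2 fold change -0.35, unadjusted p = 0.000432).

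Fgf23, the bone hormone that lowers blood phosphate, was taken up by the study from genes higher in F+ than in F- on these arrays, because of earlier work on it in hypertrophy, so that its values are no independent evidence. It was 26.3, 23.4 and 26.6 on the Sham arrays and 43.4, 42.4 and 35.6 on the F+ arrays. All F+ arrays exceeded all Sham arrays, and the fold was 1.59 (0.67 on the log2 scale, standard error 0.0888, unadjusted p = 8.13e-05, adjusted p = 0.564 with limma). The exact two-sided permutation test of these 6 arrays gave p = 0.1, the smallest value that it can reach. Of 22 FGF ligands, 8 were higher, and the median was -0.04. At an unadjusted p under 0.05, 3 were higher (13.6%, against 4.41% of all genes), namely Fgf23, Fgf2 and Fgf18. Fgf2, basic FGF, lay 0.11 higher (unadjusted p = 0.00649) and Fgf18 0.09 higher (unadjusted p = 0.0376). Fgfr1, a receptor for these ligands, was 70.9, 72 and 71.1 on the Sham arrays and 72.5, 73.5 and 74.4 on the F+ arrays. The groups did not overlap, but the difference was small (log2 fold change 0.04, 95% interval -0.01 to 0.10). Kl, klotho, the co-receptor of Fgf23, overlapped, at 26.7, 25.8 and 25.9 and 27.2, 25.3 and 23.4. Of 6 measured genes of FGF receptors and klotho, 1 was lower at an unadjusted p under 0.05 (16.7%, against 4.16% of all genes) and 0 higher. The lower gene was Fgfr2, another receptor (-0.18, unadjusted p = 0.0362). Gapdh, often used as a reference gene, differed by -0.01 (95% interval -0.05 to 0.04).

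The F- arrays, from banded hearts with less fibrosis, give another view of the same genes, but F- against Sham and F+ against Sham share the Sham arrays, so that the values are set side by side and the difference between F+ and F- is tested by itself. For Fgf23 the F- arrays were 25.9, 27.4 and 24.1, at the level of the Sham arrays, and F+ minus F- was 0.65 (standard error 0.0888, unadjusted p = 0.000101, adjusted p = 0.318 with limma). Car4 was 58.4, 62.5 and 64.7 on the F- arrays, and F+ minus F- was -0.42 (unadjusted p = 4.92e-05). For Smad6 the difference between the banded groups was 0.29 (unadjusted p = 1.25e-05, adjusted p = 0.12 with limma). Angpt1 was 39.1, 62 and 61.8 on the F- arrays, with array 1 at the F+ level, and F+ minus F- was -0.68 (unadjusted p = 0.00859).

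Several genes of muscle stress and matrix were high on F- array 1 alone. Nppb was 151.8, 98.5 and 101.8 on the F- arrays, Postn 86.7, 43.6 and 35.4, and Ncam1 97.3, 52.5 and 55. F- array 1 exceeded the F+ arrays for Nppb and Postn and lay just below them for Ncam1, while the other two lay near the Sham level. F+ minus F- was 0.28 for Nppb (unadjusted p = 0.101), 0.47 for Postn (unadjusted p = 0.152) and 0.72 for Ncam1 (unadjusted p = 0.0103). Of the macrophage list, 15 of 30 genes were higher in F+ than in F- at an unadjusted p under 0.05, where 4.54% of all genes were, and the summed macrophage markers were 309.7 to 391.7 on the F- arrays. Of the fatty acid list, 9 of 30 were lower in F+ than in F- at that threshold, where 3.93% of all genes were. For Slc27a1 and Kcna5 the F- arrays lay below the Sham arrays too, at 66.2, 70.2 and 70 and 30.9, 34.3 and 34.6, and F+ minus F- was -0.06 (unadjusted p = 0.494) and -0.03 (unadjusted p = 0.605).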

How the data were processed

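Right ventricular RNA of 9 arrays (3 Sham, 3 F-, 3 F+) was measured on an Affymetrix rat gene array. The authors deposited 1 table of signal intensity values per feature and array. Its background correction, normalization and scale are not given in the sources used here, and the square roots of the values look like log2 intensities, so that a fold on this scale can understate the change in RNA. The labels name Sepasol extraction and biotinylated cRNA, whereas the methods name TRIzol and sense-strand cDNA.

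The deposited intensity values were taken to log2, with no further normalization, and fitted with limma 3.58.1 in R 4.3.3 (group means over all 9 arrays, eBayes, Benjamini-Hochberg over all features). Of these, 15310 had 1 gene symbol in the platform annotation, 323 had several and 13582 were not listed. For genes with several features, the one with the highest mean was used. Of the features with 1 symbol, 15279 matched RefSeq by gene ID. No column of values was left out. Arrays have no read depth, so their number limits the precision. The fit was tested on simulated data. Promoters came from RefSeq, GRCr8.

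The comparison, the members and the gene lists were chosen with earlier results of these data known. Named genes were drawn from a set of 290: the 20 largest increases and decreases, the 10 highest and lowest brighter genes whose arrays did not overlap, the 4 members per list with the largest limma statistic, and some fixed genes. Genes chosen outside it after their values were seen were Ankrd23, Cilp, Ltbp2, Cx3cr1, C1qa, C1qc, Ccr2, Ccl2, Selplg, Prox1, Decr1, Eci1, Ucp3, Acsl6, Cd36, Cpt1b, Acadm, Ppargc1a, Scn4b, Cntfr, Myl7, Tnni1, Hk1, Kcnv2, Mfap2, Efemp1, Pde3a and Pde4b. Alternatives were quantile normalization, median centring, no dim features, features with 1 symbol, the F+ and Sham arrays alone, another variance prior, the replicate number as a block, square roots, averaging a gene's features, arithmetic means and leaving out each Sham array, each F+ array and F- array 1 in turn.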

Additional observations from a re-analysis of the deposited data

How the results depend on the processing

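Among the settings tried, limma's adjusted threshold was passed by no feature except in the fit of the F+ and Sham arrays alone, which called 1 feature with no gene symbol (adjusted p = 0.0452). The smallest adjusted p was 0.0647 without F- replicate 1 and 0.234 to 0.8 in the others. Features above 1.5-fold, 89 higher and 46 lower, became 17 and 6 without the dimmest 33.3% and 16 and 8 among features with 1 symbol. On square roots, read as log2 intensities, they were 365 and 227. Among features with 1 symbol, 706 were lower at an unadjusted p under 0.05 and 1118 lower without overlap. Median centring left 2677 higher without overlap, against 1661. With 1 array left out, F- replicate 1 included, features above 1.5-fold were 73 to 198 higher and 46 to 71 lower, the most without F+ replicate 1, and those without overlap 1661 to 3630 higher and 1916 to 3716 lower, since fewer F+ or Sham arrays are then compared. On square roots the list medians were 0.5204 for hypertrophy, 0.3791 for fibroblasts, 0.5902 for macrophages and -0.3683 for fatty acid genes. With 1 array left out they were 0.1146 to 0.2139 for hypertrophy, 0.14 to 0.1968 for fibroblasts, 0.194 to 0.2518 for macrophages and -0.1246 to -0.0811 for fatty acid genes. Fgf23 lay between 0.608 and 0.7565 with 1 array left out and at 1.3142 on square roots.

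With 1 array left out, signs turned for Col1a1 (-0.0243 without Sham replicate 1 and -0.001 without F+ replicate 3, up to 0.089), Col3a1 (-0.0037 without F+ replicate 3, up to 0.1027), Kl (0.0057 without F+ replicate 3, down to -0.1029) and Myh7 (-0.0328 without Sham replicate 2, up to 0.2185), and the cause was not tested. Myl7 went from -0.40 to -0.16 without Sham replicate 2. With the replicate number as a block, 905 features were higher and 1018 lower at an unadjusted p under 0.05 and 0 passed the adjusted threshold. Whether the numbers pair the arrays is not known. The deviations of same-numbered Sham and F+ arrays correlated at 0.051, 0.174 and -0.184, and those of differently numbered arrays at -0.252 to 0.202. With 3 arrays per group these values cannot settle it. A fit without F- replicate 1, added after the data were seen, gave 1293 higher and 1357 lower at an unadjusted p under 0.05 and 0 past the adjusted threshold.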
